A study of Mus musculus with 67 samples.

Results

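The genes described here are 9 apolipoprotein genes (Apoa1, Apoa2, Apoa4, Apoa5, Apob, Apoc1, Apoc2, Apoc3 and Apoe) and Mttp, which encodes the microsomal triglyceride transfer protein. They were taken as the rows of the deposited expression table that carry these symbols, 10 of 45808 rows, and each symbol had 1 row. All 10 had a mean of at least 1 FPKM (fragments per kilobase of exon and scaled to library size), as did 9958 rows of the table, which were the genes tested. The study followed liver mRNA over the day in C57BL/6 mice aged 24 weeks, fed a high-fat diet (HFD) for 12 weeks. The feeding regimens were time-restricted feeding (TRF), in which food is offered only in part of each day, and ad lib feeding. The sources used here give no hours for the TRF window. Among the mutants, Bmal1-liverKO lacks Arntl, which encodes the clock activator BMAL1, in the liver; the Cry1Cry2 double KO lacks both cryptochrome clock repressors and is not labelled as restricted to the liver; and Rev-erbα/β-liverdoubleKO lacks the clock repressors encoded by Nr1d1 and Nr1d2 in the liver. Wild-type (WT) mice were their controls, and all 8 groups ate HFD, so no comparison with another diet was made. The sources used here name neither the driver of each liver knockout nor the deleted exons.

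Per the labels, zeitgeber time (ZT) counts hours, and the sampling differed between genotypes. Bmal1-liverKO had 6 TRF and 6 ad lib libraries, 1 at each of ZT4, 8, 12, 16, 20 and 24. The Cry1Cry2 double KO and Rev-erbα/β-liverdoubleKO each had 8 TRF and 8 ad lib libraries, 1 every 3 h between ZT3 and ZT24. WT had 11 TRF and 12 ad lib libraries, with replicate numbers 1 and 2 at ZT4, 8, 12, 16, 20 and 24, except that TRF had only replicate number 2 at ZT12. Nothing in the labels ties a library to an animal, and the p-values therefore reflect the spread between these 67 libraries, which may be technical.

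Apolipoproteins are the protein part of lipoprotein particles, which carry triglyceride and cholesterol in the blood, and the liver makes most of them. Apob is the scaffold of very-low-density lipoprotein (VLDL), and Mttp loads lipid onto it in the endoplasmic reticulum. Apoa1 and Apoa2 are the main proteins of high-density lipoprotein (HDL), while Apoc1, Apoc2, Apoc3, Apoe, Apoa4 and Apoa5 are exchangeable proteins that act on lipolysis and on uptake by receptors.

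By symbol, the members lie on 5 chromosomes of GRCm38 (GENCODE M21 annotation). On chromosome 9, 4 of them sit within 43.3 kb: Apoa1 (chr9:46228580-46230466, plus strand), Apoc3 (chr9:46232933-46235636, minus strand), Apoa4 (chr9:46240696-46243459, plus strand) and Apoa5 (chr9:46268633-46271919, plus strand). On chromosome 7, 3 sit within 27.6 kb on the minus strand: Apoc2 (chr7:19671579-19677941), Apoc1 (chr7:19689481-19692660) and Apoe (chr7:19696109-19699188). Apoa2 is at chr1:171225054-171226379 (plus strand), Apob at chr12:7977648-8016835 (plus strand) and Mttp at chr3:138089854-138144968 (minus strand). Of the exon bases of Apoc2, 79.5% are shared with Gm44805 on the same strand, so its reads are uncertain. Apoa4 shares 34.9% of its exon bases with Gm47528 and 34.8% with Gm10680, Apoa5 shares 20.8% with Gm47544, and Mttp shares 7.4% with Trmt10a and 2.1% with Gm43691. These partners of Apoa4, Apoa5 and Mttp lie on the opposite strand, and because no source used here gives the strand setting of the counts, their reads cannot be told apart from those of the members. Exon GC content ran from 43.55% in Apob to 59.52% in Apoe, and exon length from 537 bases in Apoa2 to 13934 bases in Apob. Apoe was at the 95.7th percentile of the tested genes for GC content, Apoa4 at the 90.5th, and Apob at the 97.4th for length.

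The 4 promoters printed here belong to the 3 members with the greatest feeding differences in WT (Apoe, Apoa4 and Apoa5) and to Apob, the scaffold of VLDL. Each runs from 250 bases before to 50 after the start of the gene in RefSeq (GRCm38.p6), 5′ to 3′ on the gene's strand, at chr7:19699139-19699438 (minus) for Apoe, chr9:46240594-46240893 (plus) for Apoa4, chr9:46268383-46268682 (plus) for Apoa5 and chr12:7977427-7977726 (plus) for Apob. Capitals mark matches on either strand to 4 motifs. They are the E-box CACGTG, which BMAL1 complexes are known to bind; the TATA box TATAAA; the nuclear receptor element AGGTCA, which the REV-ERBs are known to bind; and the D-box TTATGNAA.
Apoe promoter: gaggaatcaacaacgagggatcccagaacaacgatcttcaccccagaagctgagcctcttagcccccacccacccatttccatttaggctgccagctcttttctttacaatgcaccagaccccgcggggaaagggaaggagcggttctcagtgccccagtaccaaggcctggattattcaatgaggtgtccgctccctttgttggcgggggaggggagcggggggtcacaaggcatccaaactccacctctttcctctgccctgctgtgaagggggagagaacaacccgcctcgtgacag
Apoa4 promoter: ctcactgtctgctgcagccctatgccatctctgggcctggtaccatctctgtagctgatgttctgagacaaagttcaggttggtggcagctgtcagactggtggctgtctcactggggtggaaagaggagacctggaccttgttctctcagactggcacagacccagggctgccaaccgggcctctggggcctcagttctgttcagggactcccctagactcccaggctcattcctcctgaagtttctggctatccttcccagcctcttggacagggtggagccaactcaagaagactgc
Apoa5 promoter: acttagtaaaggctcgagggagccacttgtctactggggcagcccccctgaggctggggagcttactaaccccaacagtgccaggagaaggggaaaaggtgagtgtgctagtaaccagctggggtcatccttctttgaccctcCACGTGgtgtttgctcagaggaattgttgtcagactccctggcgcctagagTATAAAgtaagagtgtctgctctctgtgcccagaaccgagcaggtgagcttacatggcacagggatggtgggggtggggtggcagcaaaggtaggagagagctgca
Apob promoter: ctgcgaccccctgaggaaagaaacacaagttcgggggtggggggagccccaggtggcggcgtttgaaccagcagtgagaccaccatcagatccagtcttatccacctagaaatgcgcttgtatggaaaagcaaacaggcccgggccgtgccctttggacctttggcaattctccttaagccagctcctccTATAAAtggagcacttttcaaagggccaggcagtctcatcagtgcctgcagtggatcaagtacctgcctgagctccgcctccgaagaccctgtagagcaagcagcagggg

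Of the 10 members, 8 had a promoter in that table, and no match of a motif overlapped a match of another. Positions are those of the first base, relative to the start of the gene. CACGTG was found only in Apoa5 among the 8, at position −107, and is in 7.15% of 32851 promoters of the same length. TATAAA was found in Apoa5 (position −56), Apob (−60) and Apoa2 (−212), and is in 13.6% of promoters. AGGTCA was found in Apoc2 alone, at positions −115 and 43, and is in 16.3%. TTATGNAA, in 3.38% of promoters, had no match, and Apoa1, Apoa4, Apoe and Mttp had none of the 4 motifs in these windows. The RefSeq starts used here need not match the GENCODE starts given above. The Mttp window, chr3:138143369-138143668, lies wholly inside its GENCODE gene. For Apoa1, Apoa4 and Apob the GENCODE start falls inside the window, before the RefSeq start. Absence of a motif therefore holds for these windows alone.

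Libraries held 9.09 to 36.01 M reads as recovered from the FPKM, and the members were deeply covered, with Apoe at 35067 to 569988 recovered reads a library and Apoa4 at 883 to 63389. The slope of a library's log2 values on GC content, in log2 units for 10 percentage points, was −0.54 at the median of WT TRF (−1.16 to 0.05), against 0.305 in WT ad lib (−0.19 to 0.53), and the medians of the 6 mutant groups ran from −0.05 to 0.15. Within WT TRF the slope was −0.38 to 0.05 in the 5 libraries of replicate number 1 and −1.16 to −0.54 in the 6 of replicate number 2. A slope on exon length under −0.2 (log2 per doubling) was found in 4 libraries: Bmal1-liverKO TRF ZT20, WT TRF ZT16 replicate 2, WT TRF ZT24 replicate 1 and WT ad lib ZT16 replicate 2, the last with an FPKM sum of 1097495 against 386198 to 698391 in all other libraries. Results are therefore given as deposited and after each library was corrected for a smooth trend on GC content and exon length. Summed exocrine pancreas markers stood over 3 times the median in 8 libraries, among them all 4 WT libraries of ZT16. The deleted genes could not check the labels, since FPKM cover whole genes. Arntl was at 2.00 to 7.09 FPKM in Bmal1-liverKO against 0.42 to 12.6 in WT. Cry1, Cry2, Nr1d1 and Nr1d2 in their mutants also overlapped WT. The medians of Nr1d1 and Nr1d2 were higher in Rev-erbα/β-liverdoubleKO, at 31.7 and 17.85 FPKM against 2.18 and 8.56 in WT. Those of Cry1 and Cry2 were 10.2 and 2.73 in the Cry1Cry2 double KO, against 10.63 and 3.23 in WT. Hepatocyte markers dominated every library (Alb at 9590.3 to 66750 FPKM), and 7 of 10 intestinal markers were at 0 in some libraries, from 11 (Vil1) to 66 (Alpi and Cdx2) of 67, while Fabp2 (15.4 to 1090.5 FPKM), Anpep (5.07 to 57.6) and Slc5a1 (0.073 to 0.746) were above 0 in all.

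The core proteins of VLDL assembly were measured at moderate levels. Apob averaged 193 ± 96.0 FPKM in Bmal1-liverKO TRF and 357 ± 114 in Bmal1-liverKO ad lib (SD, n = 6 each), 353 ± 70.3 and 338 ± 41.9 in TRF and ad lib Cry1Cry2 double KO, and 359 ± 80.3 and 283 ± 41.1 in TRF and ad lib Rev-erbα/β-liverdoubleKO (n = 8 each). In WT it averaged 274 ± 199.7 FPKM under TRF (n = 11) and 202 ± 147 under ad lib feeding (n = 12), with a spread over single libraries of 63.4 to 779 and of 57.9 to 484. The level of Apob thus varied more between WT libraries than between group means, and of its neighbouring pairs 1 differed beyond the larger SD (Cry1Cry2 double KO ad lib above Rev-erbα/β-liverdoubleKO ad lib). Mttp was the least abundant member. It averaged 44.5 ± 4.13 and 51.4 ± 6.73 FPKM in TRF and ad lib Bmal1-liverKO, 61.9 ± 7.84 and 57.0 ± 4.75 in TRF and ad lib Cry1Cry2 double KO, 61.0 ± 9.43 and 54.0 ± 7.14 in TRF and ad lib Rev-erbα/β-liverdoubleKO, and 57.4 ± 9.42 and 45.6 ± 7.82 in TRF and ad lib WT. No neighbours in the order of the 8 Mttp means lay further apart than the larger of their SDs.

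The HDL proteins were among the most abundant members. Apoa1 averaged 11113 ± 1883 and 9213 ± 1571 FPKM in TRF and ad lib Bmal1-liverKO, 7743 ± 2381 and 8176 ± 963 in TRF and ad lib Cry1Cry2 double KO, 10228 ± 1839 and 8466 ± 1173 in TRF and ad lib Rev-erbα/β-liverdoubleKO, and 7707 ± 3634 and 14937 ± 6532 in TRF and ad lib WT. Apoa2 averaged 11799.8 ± 1909 and 11610.1 ± 2169 FPKM in TRF and ad lib Bmal1-liverKO, 9922 ± 2618 and 12271 ± 1643 in TRF and ad lib Cry1Cry2 double KO, 9272 ± 1576 and 10981 ± 606 in TRF and ad lib Rev-erbα/β-liverdoubleKO, and 11292 ± 4468 and 14988 ± 3633 in TRF and ad lib WT. Both had their highest mean in WT ad lib, but no neighbours in their order of groups differed beyond the larger SD.

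Among the lipolysis proteins, Apoa4 and Apoa5 were lowest in WT TRF. Apoa4, which the intestine makes most strongly and which is known to rise in fatty liver of mice, averaged 502 ± 114 and 382 ± 354 FPKM in TRF and ad lib Bmal1-liverKO, 911 ± 677 and 419 ± 151 in TRF and ad lib Cry1Cry2 double KO, 380.3 ± 215 and 645 ± 218 in TRF and ad lib Rev-erbα/β-liverdoubleKO, and 246 ± 239 and 816 ± 697 in TRF and ad lib WT. Its SDs were of the size of its means in several groups, and no neighbours differed beyond the larger SD. Apoa5, an enhancer of triglyceride breakdown by lipoprotein lipase, averaged 486 ± 67.5 and 518 ± 63.6 FPKM in TRF and ad lib Bmal1-liverKO, 432 ± 85.3 and 441 ± 73.9 in TRF and ad lib Cry1Cry2 double KO, 353 ± 84.8 and 505 ± 96.7 in TRF and ad lib Rev-erbα/β-liverdoubleKO, and 309 ± 182 and 670.5 ± 223 in TRF and ad lib WT. Here too no neighbours differed beyond the larger SD.

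The C proteins had 1 gap each in the order of their means. Apoc1, an inhibitor of receptor-mediated uptake, averaged 11060.1 ± 3418 and 9353 ± 3445 FPKM in TRF and ad lib Bmal1-liverKO, 5077 ± 965 and 5910.3 ± 527 in TRF and ad lib Cry1Cry2 double KO, 7615 ± 1473 and 8355 ± 1075 in TRF and ad lib Rev-erbα/β-liverdoubleKO, and 7754 ± 3284 and 17964 ± 18497 in TRF and ad lib WT. The last mean rests on WT ad lib ZT16 replicate 2, at 75271 FPKM, the library with the outlying FPKM sum. That library also held the highest WT ad lib values of Apoc2 (2583 FPKM) and Apoc3 (10537). In replicate number 1 of WT ad lib the highest values were 691 and 3561. It was highest for Apoa1, Apoa2, Apoa4, Apoa5 and Apoe too, and lowest for Apob and Mttp. The WT ad lib means and SDs of all members therefore include this library. Apoc2, the activator of lipoprotein lipase, averaged 544 ± 154 and 368 ± 96.6 FPKM in TRF and ad lib Bmal1-liverKO, 308 ± 101 and 234 ± 41.2 in TRF and ad lib Cry1Cry2 double KO, 261 ± 31.4 and 318 ± 54.0 in TRF and ad lib Rev-erbα/β-liverdoubleKO, and 363 ± 219 and 687 ± 618 in TRF and ad lib WT. Apoc3, an inhibitor of lipoprotein lipase, averaged 2739.7 ± 724 and 2319.9 ± 568 FPKM in TRF and ad lib Bmal1-liverKO, 1769 ± 128 and 1710.4 ± 125 in TRF and ad lib Cry1Cry2 double KO, 1295 ± 262 and 1847 ± 230.4 in TRF and ad lib Rev-erbα/β-liverdoubleKO, and 1876 ± 1136 and 3153 ± 2428 in TRF and ad lib WT. Of the 7 neighbouring pairs, Apoc1 stepped beyond the larger SD below Rev-erbα/β-liverdoubleKO TRF, Apoc2 below Bmal1-liverKO TRF and Apoc3 below Cry1Cry2 double KO ad lib.

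Apoe, the ligand by which remnants bind their receptors, showed the clearest order of groups. It averaged 6861 ± 704 and 6539 ± 551 FPKM in TRF and ad lib Bmal1-liverKO, 5289.8 ± 911 and 5556 ± 219.7 in TRF and ad lib Cry1Cry2 double KO, and 6393 ± 1154 and 7646 ± 441 in TRF and ad lib Rev-erbα/β-liverdoubleKO. In WT it averaged 3176 ± 2186 FPKM under TRF and 12348 ± 2906 under ad lib feeding. The 6 mutant groups thus lay between the WT groups, and Apoe had 2 neighbouring pairs beyond the larger SD, WT ad lib above Rev-erbα/β-liverdoubleKO ad lib, and Rev-erbα/β-liverdoubleKO ad lib above Bmal1-liverKO TRF.

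**Figure D1:**
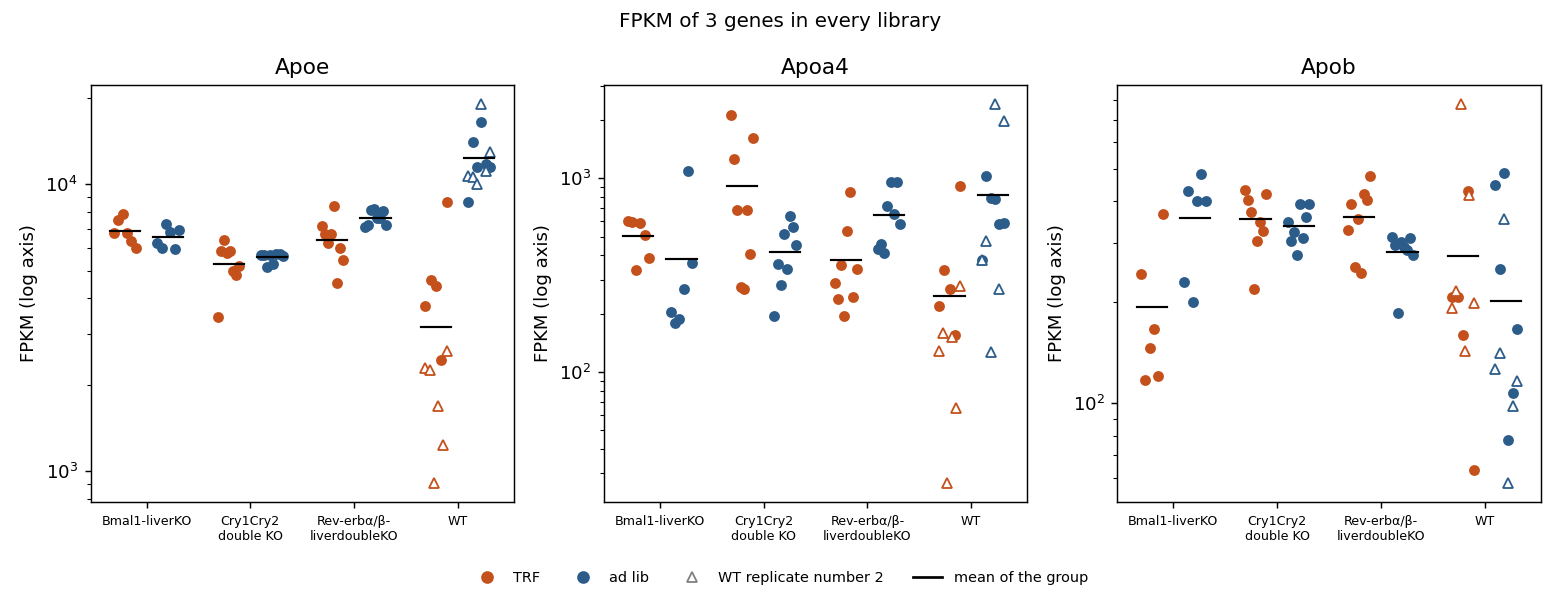
FPKM of Apoe, Apoa4 and Apob in each library (log axis), by genotype and feeding; a bar is the mean of a group and triangles are WT libraries of replicate number 2. Apoe lies at 910.4 to 8674 in WT TRF and at 8642 to 19043 in WT ad lib, with the mutants between their means, while the WT values of Apoa4 and Apob spread most widely.

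Whether restricted feeding moved these genes in WT was asked first. Under TRF, 8 of the 10 members were lower and Mttp was higher than under ad lib feeding by limma with Benjamini-Hochberg adjustment over the 9958 genes (adjusted p under 0.05), so 9 of 10 passed where 64.1% of all genes did (35.5% lower, 28.6% higher). The median difference of the members, on the log2(FPKM + 1) scale that is used for every difference here and understates changes of low genes, was −0.96, against −0.03 over all genes. Apoe stood out. In bulk tissue, fewer cells of a type and less RNA per cell cannot be told apart. After the correction for GC content and length 4 members passed, where 38.5% of 9581 genes did, all 4 lower (Apoe, Apoa4, Apoa5 and Apoc1), and the median of the members was −0.175.

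In WT TRF, Apoe was at 3766, 4629, 4420.0, 2436 and 8674 FPKM at ZT4, 8, 16, 20 and 24 in replicate number 1, and at 2290.1, 2257, 910.4, 1693, 1238 and 2624 FPKM at ZT4, 8, 12, 16, 20 and 24 in replicate number 2. In WT ad lib it was at 8642, 13982, 11488, 16421, 11724 and 11511 FPKM at ZT4, 8, 12, 16, 20 and 24 in replicate number 1, and at 10689.6, 10551, 10015, 19043, 11149 and 12956 FPKM in replicate number 2. Every TRF library lay below every ad lib library but for TRF ZT24 replicate 1, which lay just above the lowest ad lib library, and TRF was lower at 6 of 6 times. Apoe differed by −2.24 ± 0.18 (SE; adjusted p = 2.1e-14) as deposited and by −1.13 (adjusted p = 2.2e-12) after correction. Within replicate number 1 the difference was −1.50 and within replicate number 2 it was −2.81, and over 15 other ways of processing it ran from −2.81 to −0.79 and passed in each. The summed level of 12 of 12 listed Kupffer cell and macrophage markers, cells that also make Apoe, was 256 to 767 FPKM (median 475) in WT TRF and 367 to 1494 (median 506) in WT ad lib, and 3 of the 12 rose and 4 fell (0 and 2 after correction), the falls led by C1qc (−1.54; −0.64 after correction). Summed markers of other cells also differed at the median between feedings in WT, with ranges that overlapped. The 7 endothelial markers stood at 54.1 to 88.8 FPKM (median 69.6) in TRF, against 67.2 to 154 (median 77.6) in ad lib. Cdh5 (−0.41, adjusted p = 0.015) and Clec4g (−0.41, adjusted p = 0.022) fell, and the other endothelial markers did not pass. After correction neither fall passed (−0.16 each). The 6 adipocyte markers stood at 0.195 to 7.54 FPKM (median 1.10) in TRF, against 0.761 to 46.5 (median 15.98) in ad lib. Cfd, the 1 of them tested, fell (−2.31, adjusted p = 1.1e-08; −1.30 after correction), while Adipoq was at 0 in 20 and Plin1 in 45 of all 67 libraries. The 6 erythroid markers stood at 131 to 890 FPKM (median 230) in TRF, against 148 to 3085 (median 518) in ad lib, with 3 of 5 falling. The 8 stellate cell markers stood at 152 to 289 FPKM (median 178) in TRF, against 109 to 210 (median 122) in ad lib. Dcn made most of this sum, with a median of 124 FPKM over all 67 libraries, against 6.56 for Lum, the next. Of 7 tested, 3 rose (Lum 0.85, Lrat 0.55 and Dcn 0.52) and 2 fell (Des −0.56 and Pdgfrb −0.28). After correction Lum still rose (0.48, adjusted p = 0.0013), while Lrat (0.11), Dcn (−0.12) and Des (0.14) did not pass. Pdgfrb turned to a rise that passed (0.25, adjusted p = 0.017). The 5 bile duct markers stood at 40.3 to 180 FPKM (median 66.2) in TRF, against 23.9 to 83.4 (median 39.5) in ad lib. Spp1 made most of this sum, with a median of 43.5 FPKM over all 67 libraries, against 1.90 for Sox9, the next. Sox9, the other of them tested, did not pass (−0.01, adjusted p = 0.92). Spp1 rose by 0.74 as deposited, and its corrected difference of 0.47 did not pass (adjusted p = 0.068). The part of these cells in the results on the members was not tested.

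Apoa4 was at 26.8 FPKM in the lowest, 159 in the median and 912 in the highest WT TRF library, against 127, 582 and 2418 FPKM in WT ad lib. The ranges overlapped, yet the mean of TRF was lower at 6 of 6 times. Apoa4 differed by −1.87 ± 0.36 (adjusted p = 1.7e-05), and by −0.97 (adjusted p = 0.0078) after correction. With both the correction and a single WT replicate number the difference was −0.68 for number 1, which did not pass (adjusted p = 0.16), and −1.12 for number 2 (adjusted p = 0.024). Of the intestinal markers, Fabp2 and Anpep passed the minimum level, and neither passed for feeding in WT (0.05, adjusted p = 0.87, and −0.29, adjusted p = 0.18).

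Apoa5 was at 107 FPKM in the lowest, 269 in the median and 783 in the highest WT TRF library, against 439, 626 and 1222 FPKM in WT ad lib. Its ranges overlapped as well, and TRF was lower at 5 of 6 times. It differed by −1.28 ± 0.17 (adjusted p = 7.9e-09), and by −0.56 (adjusted p = 0.00013) after correction. Apoc1 differed by −1.02 ± 0.22 (adjusted p = 9.5e-05) and by −0.40 (adjusted p = 0.0094) after correction, but by −0.39 within replicate number 1 alone (adjusted p = 0.18). For Apoa5 the corrected difference within replicate number 1 was −0.38 and did not pass (adjusted p = 0.13).

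Of the other 6 members, 5 passed as deposited and 0 after correction. Apoa1 differed by −0.995 ± 0.18 (adjusted p = 3.8e-06; −0.16 after correction), Apoc2 by −0.93 ± 0.26 (adjusted p = 0.0015; −0.13) and Apoc3 by −0.79 ± 0.21 (adjusted p = 0.0012; −0.04). Apoa2 differed by −0.49 ± 0.14 (adjusted p = 0.0016; −0.19). Mttp was the member that was higher in TRF, by 0.33 ± 0.08 (adjusted p = 0.00046; 0.12 after correction), at 48.5 to 73.7 FPKM in TRF against 29.9 to 60.4 in ad lib and higher at 6 of 6 times. Apob did not pass at 0.52 ± 0.26 (adjusted p = 0.075). It passed when any of 6 single WT libraries was left out (ad lib ZT4 replicate 1, ad lib ZT12 replicates 1 and 2, TRF ZT16 replicates 1 and 2 and TRF ZT24 replicate 1; lowest adjusted p = 0.018, difference up to 0.67), and its corrected difference was 0.18.

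**Figure D2:**
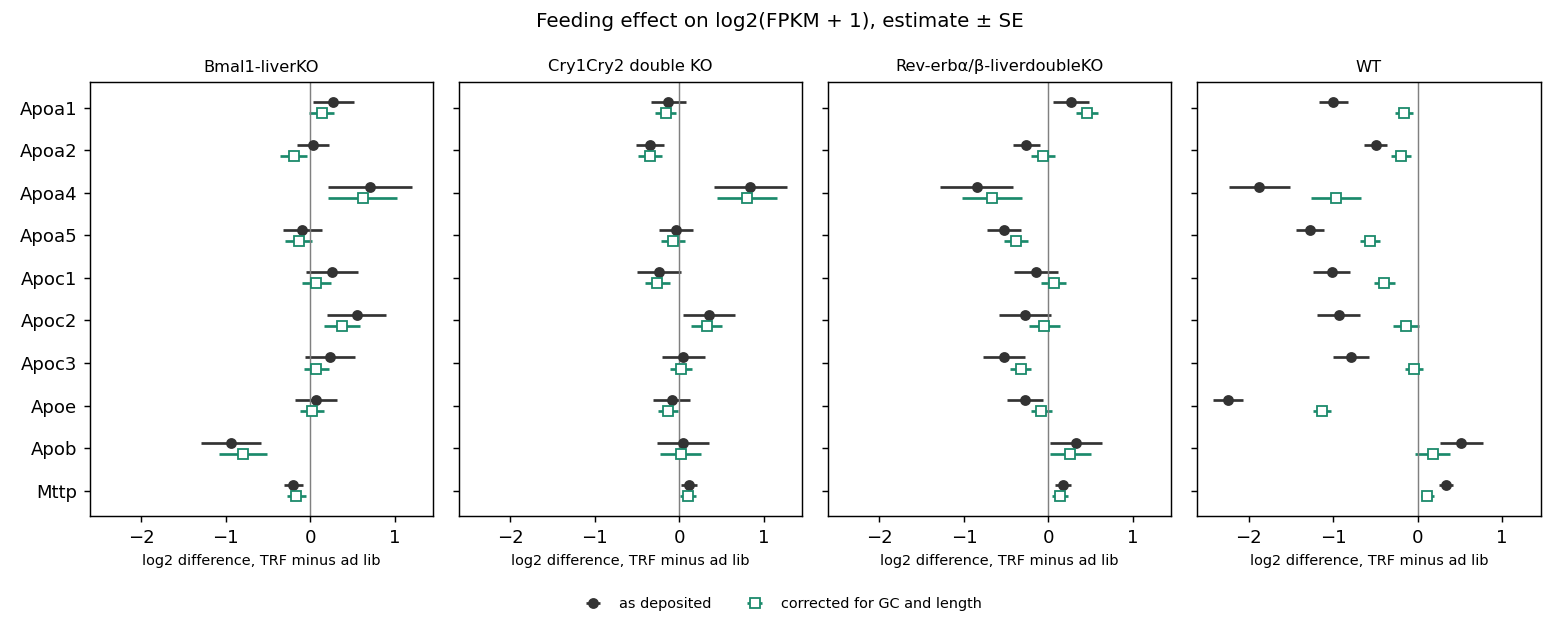
Difference between TRF and ad lib on the log2(FPKM + 1) scale, with SE as bars, for the 10 members in each genotype, as deposited and after correction for GC content and exon length. In WT, Apoe is at −2.24 and Apoa4 at −1.87 as deposited and at −1.13 and −0.97 after correction, while most mutant values lie near 0.

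The levels followed properties of the libraries over all 67, given here as descriptions in which points share groups and depth. Apoe correlated with the GC slope of a library at Pearson r = 0.83 (Spearman rho = 0.63), Apoa5 at r = 0.67 (rho = 0.52) and Apoa4 at r = 0.59 (rho = 0.49). Apob correlated with the length slope at r = 0.84 (rho = 0.78), Mttp at r = 0.64 (rho = 0.615), Apoc1 at r = −0.83 (rho = −0.72), Apoc3 at r = −0.82 (rho = −0.76) and Apoc2 at r = −0.77 (rho = −0.65). Apoa1 and Apoa2 correlated with the length slope at r = −0.60 and −0.53 (rho = −0.42 and −0.49) and with the GC slope at r = 0.40 and 0.36. The correlation with the length slope was positive for Apob and Mttp, the members with the longest exons, and negative for the other 8. In WT the GC slopes of the feeding groups overlapped only between −0.19 and 0.05.

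**Figure D3:**
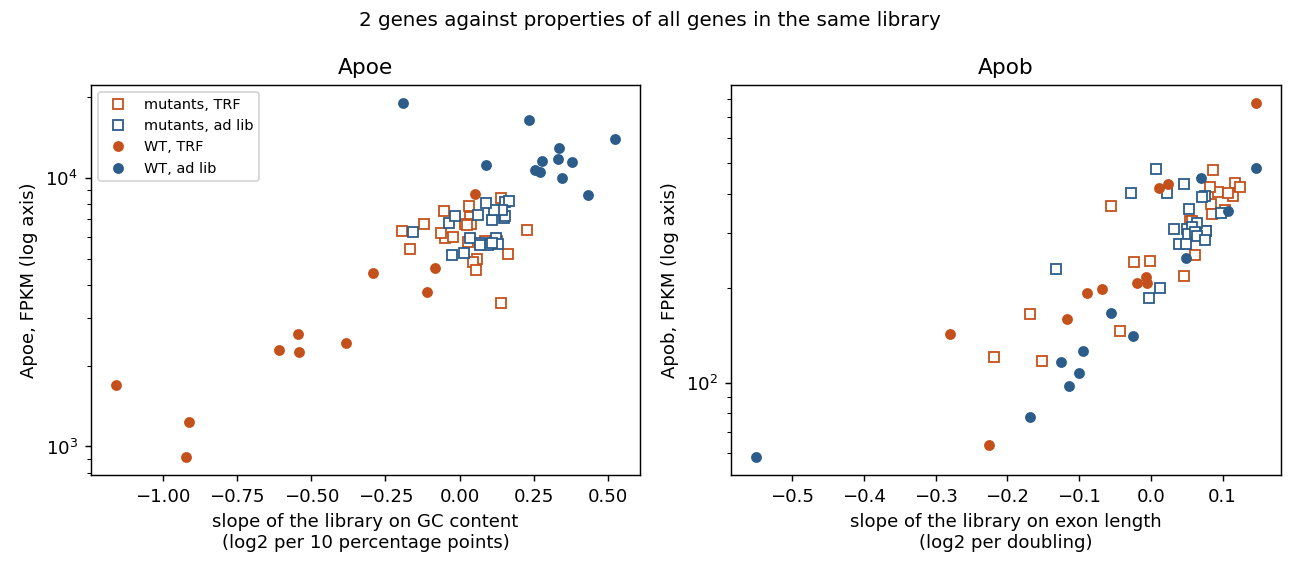
FPKM of Apoe against the GC slope of each library and of Apob against its length slope (log axis for FPKM), coloured by feeding, with squares for mutants and circles for WT. WT TRF libraries sit at GC slopes of −1.16 to 0.05 and hold the lowest Apoe values, and the lowest Apob values, 57.9 and 63.4, are in libraries with length slopes of −0.55 and −0.225.

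In the mutants, no member passed for feeding in any genotype by limma, where 0.0402% of all genes passed in Bmal1-liverKO, 0.0201% in the Cry1Cry2 double KO and 3.33% in Rev-erbα/β-liverdoubleKO. At an unadjusted p under 0.05, 1 member passed in Bmal1-liverKO, 1 in the Cry1Cry2 double KO and 2 in Rev-erbα/β-liverdoubleKO. The share of all genes at an unadjusted p under 0.05 is not given, here or for the rhythms below, so such counts only describe the members. Apoe differed by 0.07 ± 0.25 in Bmal1-liverKO, by −0.09 ± 0.22 in the Cry1Cry2 double KO and by −0.28 ± 0.22 in Rev-erbα/β-liverdoubleKO. In Bmal1-liverKO it was at 5973 to 7852 FPKM under TRF and at 5966 to 7293 under ad lib feeding, so these groups lay on top of each other. Apoa4 differed by 0.71 ± 0.50 in Bmal1-liverKO (adjusted p = 0.57), by 0.84 ± 0.43 in the Cry1Cry2 double KO (adjusted p = 0.90) and by −0.85 ± 0.43 in Rev-erbα/β-liverdoubleKO (adjusted p = 0.31). These values were as large as many that passed in WT, with wider errors from the 1 fit of all 67 libraries. With only the groups compared, the errors of Apoa4 were 0.27, 0.24 and 0.23 in the same order. Apob was at 117, 156 and 365 FPKM (lowest, median, highest) in Bmal1-liverKO TRF, against 201, 401 and 480.5 in Bmal1-liverKO ad lib, a difference of −0.94 ± 0.35 that did not pass (adjusted p = 0.36). In Rev-erbα/β-liverdoubleKO, Apoa5 differed by −0.53 ± 0.20 (adjusted p = 0.13) and Apoc3 by −0.52 ± 0.25 (adjusted p = 0.27). A limma fit of only the groups compared gave adjusted p = 0.0056 for Apoa5, 0.0054 for Apoc3 and 0.020 for Apoa4 in this mutant, which passed. The share of all genes that passed in that fit is not given here. In the same kind of fit Apoa4 did not pass in Bmal1-liverKO (adjusted p = 0.24) or the Cry1Cry2 double KO (adjusted p = 0.43). After correction no member passed in Bmal1-liverKO (0.146% of genes) or the Cry1Cry2 double KO (0.0104%), with 1 and 2 at an unadjusted p under 0.05, and Apoa1 passed in Rev-erbα/β-liverdoubleKO (5.34% of genes) at 0.46 ± 0.13 (adjusted p = 0.024). TRF and ad lib ranges overlapped for all 10 members in all 4 genotypes.

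The differences between a mutant's feeding effect and that of WT were tested directly. All 3 tests share the WT libraries, so they are not independent of one another. In Bmal1-liverKO 9 members passed (41.9% of genes did; 3 members and 21.5% of genes after correction), in the Cry1Cry2 double KO 6 (46.6%; 3 and 21.1% after correction), and in Rev-erbα/β-liverdoubleKO 4 (36.1%; 2 and 19.4% after correction). Apoe differed by 2.31 ± 0.31 in Bmal1-liverKO (adjusted p = 1.3e-07; 1.15 after correction), by 2.15 ± 0.28 in the Cry1Cry2 double KO (adjusted p = 4.8e-08; 1.00) and by 1.96 ± 0.28 in Rev-erbα/β-liverdoubleKO (adjusted p = 7.6e-07; 1.04). It passed in all 3 under each of the 15 other ways of processing. Apoa4 differed by 2.58 ± 0.62 in Bmal1-liverKO (adjusted p = 0.00078; 1.59 after correction) and by 2.71 ± 0.56 in the Cry1Cry2 double KO (adjusted p = 0.00012; 1.76), and it did not pass in Rev-erbα/β-liverdoubleKO at 1.02 ± 0.56 (adjusted p = 0.15).

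Other members differed from the WT feeding effect in some mutants. Apob was the member with a negative difference of more than 1 log2 unit, −1.46 ± 0.44 in Bmal1-liverKO (adjusted p = 0.0065; −0.97 after correction, adjusted p = 0.039), where Mttp was also negative at −0.53 ± 0.14 (adjusted p = 0.0019; −0.28 after correction, adjusted p = 0.13). Apoa1 differed by 1.27 ± 0.30 in Bmal1-liverKO, by 0.87 ± 0.27 in the Cry1Cry2 double KO and by 1.26 ± 0.27 in Rev-erbα/β-liverdoubleKO. After correction, Apoa1 passed in Rev-erbα/β-liverdoubleKO alone, at 0.62 (adjusted p = 0.0066), and whether this differed from the other mutants was not tested. Apoa5 differed by 1.18 ± 0.28, 1.24 ± 0.26 and 0.75 ± 0.26 in Bmal1-liverKO, the Cry1Cry2 double KO and Rev-erbα/β-liverdoubleKO; the last lost its call without WT TRF ZT12 replicate 2 (adjusted p = 0.054). Apoc2 passed in Bmal1-liverKO (1.48 ± 0.44) and the Cry1Cry2 double KO (1.28 ± 0.40), as did Apoc3 (1.02 ± 0.36 and 0.84 ± 0.33), which lost its call in 3 of 35 and 3 of 39 fits that left out 1 library (highest adjusted p = 0.054 and 0.092). After correction neither passed in these mutants, with Apoc2 at 0.51 and 0.46 and Apoc3 at 0.11 and 0.06, and Apoc3 turned to −0.10 and −0.15 with the correction and WT replicate number 1 alone. Apoc1 passed in Bmal1-liverKO (1.28 ± 0.38) and in Rev-erbα/β-liverdoubleKO (0.87 ± 0.34), in the second of these with a call that 21 of 39 single libraries could end (highest adjusted p = 0.11), and in neither after correction (0.47 and 0.46). Apoa5 passed after correction in the Cry1Cry2 double KO (0.48, adjusted p = 0.0499) and not in the other mutants (0.42 and 0.18).

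Between genotypes under ad lib feeding, the mutants had less Apoe and more Apob than WT. In this comparison 3 members passed in Bmal1-liverKO (24.9% of genes), 8 in the Cry1Cry2 double KO (55.4%) and 8 in Rev-erbα/β-liverdoubleKO (44.6%). The same 12 WT libraries served all 3. Apoe was at 5966 to 7293 FPKM in Bmal1-liverKO, 5158 to 5733 in the Cry1Cry2 double KO and 7093 to 8204 in Rev-erbα/β-liverdoubleKO, against 8642 to 19043 in WT, with no overlap in any mutant. It differed by −0.89 ± 0.22 (adjusted p = 0.0019) in Bmal1-liverKO, by −1.12 ± 0.20 (adjusted p = 9.3e-06) in the Cry1Cry2 double KO and by −0.66 ± 0.20 (adjusted p = 0.0062) in Rev-erbα/β-liverdoubleKO. After correction the differences were −0.58, −0.65 and −0.32 and passed in each. With libraries scaled to the same FPKM sum, which moved the median of all genes by 0.24 in Bmal1-liverKO, 0.16 in the Cry1Cry2 double KO and 0.25 in Rev-erbα/β-liverdoubleKO, the last was −0.29 and did not pass (adjusted p = 0.20). Apob differed by 1.07 ± 0.31 in Bmal1-liverKO (adjusted p = 0.0082; 0.073 without Bmal1-liverKO ad lib ZT8), by 1.05 ± 0.28 in the Cry1Cry2 double KO (adjusted p = 0.0016) and by 0.79 ± 0.28 in Rev-erbα/β-liverdoubleKO (adjusted p = 0.020), and after correction by 0.78, 0.73 and 0.51, the last not passing (adjusted p = 0.057).

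The C proteins under ad lib feeding differed most in the Cry1Cry2 double KO. Apoc1 was at 5198 to 6846 FPKM there against 7119.7 to 75271 in WT, with no overlap. The difference was −1.26 ± 0.24 (adjusted p = 3.2e-05; −0.71 after correction), and that of Apoc2 was −1.27 ± 0.28 (adjusted p = 0.00021; −0.69 after correction); both passed under all 15 other ways of processing. In the same mutant Apoa1 (−0.77 ± 0.19), Apoc3 (−0.66 ± 0.23), Apoa5 (−0.56 ± 0.18) and Mttp (0.33 ± 0.09) passed as deposited but not after correction, where 4 members and 53.8% of genes did. In Rev-erbα/β-liverdoubleKO Apoc2 (−0.83 ± 0.28), Apoc1 (−0.76 ± 0.24), Apoa1 (−0.73 ± 0.19), Apoc3 (−0.55 ± 0.23), Apoa2 (−0.41 ± 0.15) and Mttp (0.25 ± 0.09) passed, and Apoa1, Apoc1 and Apoe did after correction (44.8% of genes). The Apoc3 call there was lost in 14 of 20 fits that left out 1 library (highest adjusted p = 0.13), and that of Mttp without Rev-erbα/β-liverdoubleKO ad lib ZT6 or ZT15 or WT ad lib ZT16 replicate 2 (highest adjusted p = 0.061). In Bmal1-liverKO Apoa1 (−0.61 ± 0.21, adjusted p = 0.028) was the third member that passed. Its call was lost without Bmal1-liverKO ad lib ZT8, ZT12, ZT20 or ZT24, or WT ad lib ZT8 or ZT16 replicate 2 (highest adjusted p = 0.094), and after correction Apoe and Apob were the 2 that passed (22% of genes).

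Under TRF the direction of Apoe against WT was the opposite. The 11 WT TRF libraries, which carry the most negative GC slopes, served all 3 comparisons, and 7 members passed in Bmal1-liverKO (39.1% of genes), 3 in the Cry1Cry2 double KO (61.5%) and 3 in Rev-erbα/β-liverdoubleKO (52.6%). Apoe was at 5973 to 7852 FPKM in Bmal1-liverKO, 3432 to 6405 in the Cry1Cry2 double KO and 4535 to 8383 in Rev-erbα/β-liverdoubleKO, against 910.4 to 8674 in WT; each range overlapped that of WT. It differed by 1.42 ± 0.22 in Bmal1-liverKO (adjusted p = 1.2e-06; 0.57 after correction), by 1.03 ± 0.20 in the Cry1Cry2 double KO (adjusted p = 3e-05; 0.34 after correction) and by 1.30 ± 0.20 in Rev-erbα/β-liverdoubleKO (adjusted p = 9.9e-07; 0.73 after correction). With WT replicate number 1 alone, the difference in the Cry1Cry2 double KO was 0.29 and did not pass, and with the correction as well it was −0.006.

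Apoa4 was also higher than WT under TRF. It was at 268, 686 and 2108 FPKM (lowest, median, highest) in the Cry1Cry2 double KO and at 26.8, 159 and 912 in WT, a difference of 2.09 ± 0.40 (adjusted p = 2.3e-05; 1.65 after correction) that passed under all 15 other ways of processing (1.19 to 2.70). In Bmal1-liverKO it was at 337, 549.6 and 599 FPKM and differed by 1.57 ± 0.44 (adjusted p = 0.0037), and in Rev-erbα/β-liverdoubleKO it was at 195, 315 and 846 FPKM and differed by 1.04 ± 0.40 (adjusted p = 0.027). Neither passed after correction (0.88, adjusted p = 0.058, and 0.68, adjusted p = 0.086), and the second lost its call without Rev-erbα/β-liverdoubleKO TRF ZT9 or ZT18 or WT TRF ZT4, ZT12 or ZT20 replicate 2 (highest adjusted p = 0.10). All 3 ranges overlapped that of WT.

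The other members differed less from WT under TRF as deposited. In Bmal1-liverKO, Apoa5 (0.86 ± 0.20), Apoc2 (0.85 ± 0.31), Apoc3 (0.77 ± 0.26), Apoa1 (0.65 ± 0.21) and Mttp (−0.35 ± 0.10) passed as deposited, and after correction Apoe was the 1 member that passed (29.9% of genes). The Apoc2 call was lost without Bmal1-liverKO TRF ZT4, ZT8, ZT16 or ZT20, or WT TRF ZT12 or ZT20 replicate 2 (highest adjusted p = 0.12), and that of Apoc3 without Bmal1-liverKO TRF ZT8 or ZT20 or WT TRF ZT12 replicate 2 (highest adjusted p = 0.067). Mttp was at 39.0 to 49.6 FPKM in Bmal1-liverKO TRF, which had the lowest Mttp mean of the 8 groups, against 48.5 to 73.7 in WT TRF. In the Cry1Cry2 double KO Apoa5 passed at 0.68 ± 0.19, and after correction Apoa4, Apoe, Apob (0.57) and Apoc1 (−0.57) did (49.2% of genes). In Rev-erbα/β-liverdoubleKO Apoa1 passed at 0.53 ± 0.20 (adjusted p = 0.020), a call lost without Rev-erbα/β-liverdoubleKO TRF ZT3 or ZT15 or WT TRF ZT12 replicate 2 (highest adjusted p = 0.066). There Apoe, Apob (0.59), Apoa1 (0.31) and Apoc3 (−0.41) passed after correction (44.2% of genes).

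**Figure D4:**
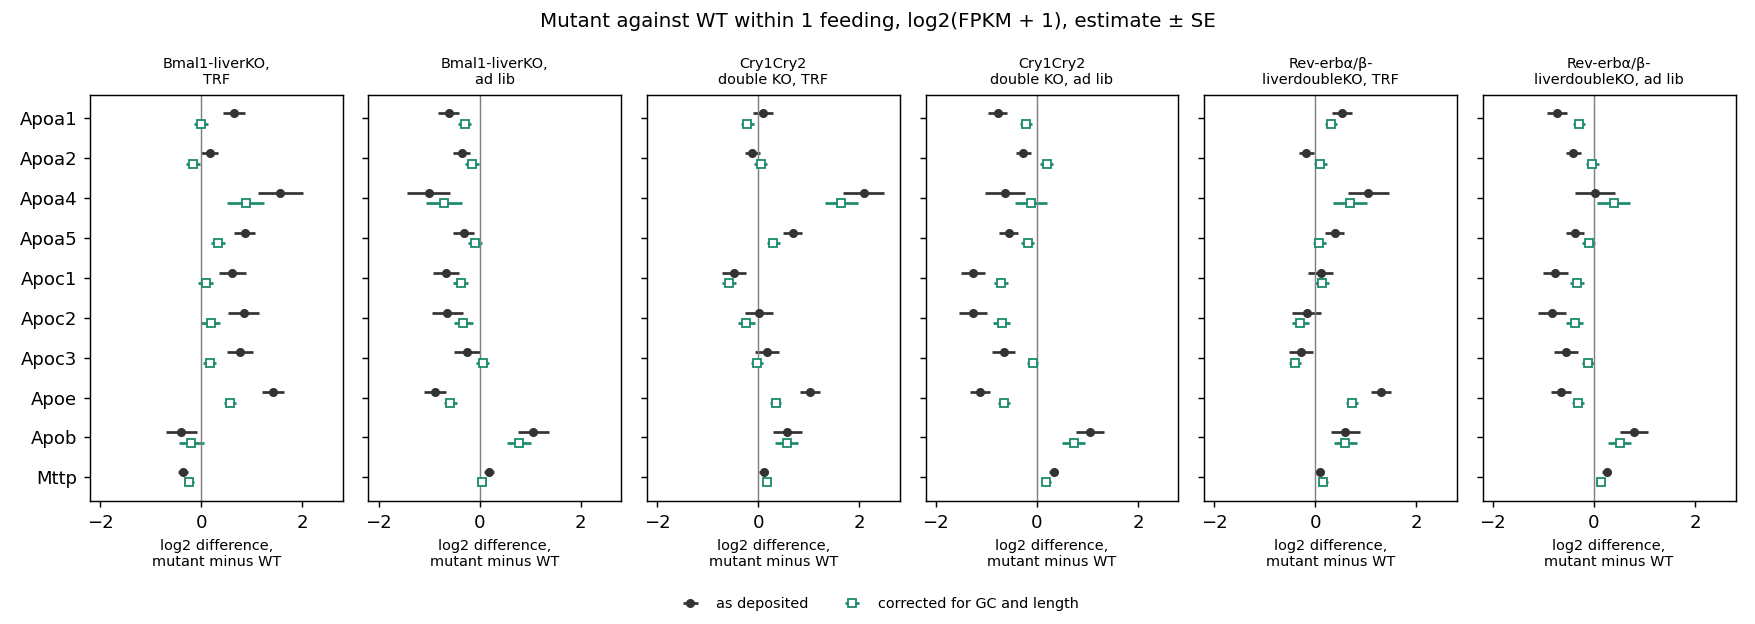
Difference between each mutant and WT on the log2(FPKM + 1) scale, with SE as bars, for the 10 members under each feeding. Apoe is at −0.89, −1.12 and −0.66 under ad lib feeding and at 1.42, 1.03 and 1.30 under TRF in Bmal1-liverKO, the Cry1Cry2 double KO and Rev-erbα/β-liverdoubleKO, in that order.

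Rhythms over the day were tested as a 24-h cosine and sine within each group. In WT ad lib, 2 members passed (29.6% of genes), Apob with an amplitude of 0.85 log2 units and a peak at ZT7.7 (adjusted p = 0.028), and Apoc1 with 0.68 and a peak at ZT18.5 (adjusted p = 0.040). Apob was at 448, 250.4, 484, 77.8, 107 and 166 FPKM at ZT4, 8, 12, 16, 20 and 24 in WT ad lib replicate number 1, and at 127, 141, 353, 57.9, 98.0 and 117 FPKM in replicate number 2. Both series had their highest value at ZT12 and their lowest at ZT16, the time at which both libraries carry pancreas reads. The Apob call was lost without ZT4 replicate 1 or ZT16 replicate 2 (highest adjusted p = 0.067), and that of Apoc1 without either of these or ZT16 replicate 1 (highest adjusted p = 0.13). After correction 4 members passed (31.9% of genes), Apob, Apoc1, Apoa5 (0.45, peak ZT14.6) and Apoc3 (0.32, peak ZT19.5).

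In WT TRF no member passed by limma (20% of genes did), and 1 did at an unadjusted p under 0.05, Apoe with an amplitude of 0.58 and a peak at ZT2.0 (adjusted p = 0.065). All 10 passed in WT TRF when the libraries with pancreas reads were left out, which removes ZT16 from this group, and up to 6 passed without WT TRF ZT16 replicate 1 alone. The shares of all genes that passed in these settings are not given here, so these counts cannot be read as particular to the members. Among the mutants 0 members passed by limma in any group, where 0.512% and 0.0301% of genes did in Bmal1-liverKO TRF and ad lib, 7.16% and 0.0603% in Cry1Cry2 double KO TRF and ad lib, and 3.94% and 0.0301% in Rev-erbα/β-liverdoubleKO TRF and ad lib. At an unadjusted p under 0.05, 2 members passed in Cry1Cry2 double KO TRF and 0 in the other 5 mutant groups. After correction 2 members passed in Cry1Cry2 double KO TRF (15.1% of genes), Apoa4 and Apoa2 (amplitude 0.47, peak ZT13.8, adjusted p = 0.047), and 0 by limma in WT TRF (15.4%), Bmal1-liverKO TRF and ad lib (2.32% and 0.282%), Cry1Cry2 double KO ad lib (0.0417%) and Rev-erbα/β-liverdoubleKO TRF and ad lib (8.6% and 0.0313%), with 1 member at an unadjusted p under 0.05 in Bmal1-liverKO ad lib and 0 in the other 5 of these groups. No rhythm differed between feedings by limma, where 0% of genes passed in Bmal1-liverKO, Rev-erbα/β-liverdoubleKO and WT, and 1.33% in the Cry1Cry2 double KO; at an unadjusted p under 0.05 there were 4 members in WT, 1 in the Cry1Cry2 double KO and 0 in the others. After correction none differed either (3.85% of genes in the Cry1Cry2 double KO, 0% in the others), with 3 members in WT and 2 in the Cry1Cry2 double KO at an unadjusted p under 0.05.

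Apoa4 in the Cry1Cry2 double KO had the largest swing of any member in the mutants under TRF. Under TRF it was at 2108, 1249, 688, 274, 268, 684, 407 and 1608 FPKM at ZT3, 6, 9, 12, 15, 18, 21 and 24. Under ad lib feeding it was at 195, 361, 282, 515, 339, 641, 561 and 453 FPKM at the same times. TRF was above ad lib at ZT24, ZT3, ZT6 and ZT9, slightly above it at ZT18, and below it at ZT12, ZT15 and ZT21. The TRF rhythm had an amplitude of 1.35 with a peak at ZT2.7 (adjusted p = 0.10; 1.31 and 0.024 after correction), and its difference from ad lib did not pass (adjusted p = 0.30). The TRF ZT3 library had an FPKM sum of 642932, the highest of its group.

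**Figure D5:**
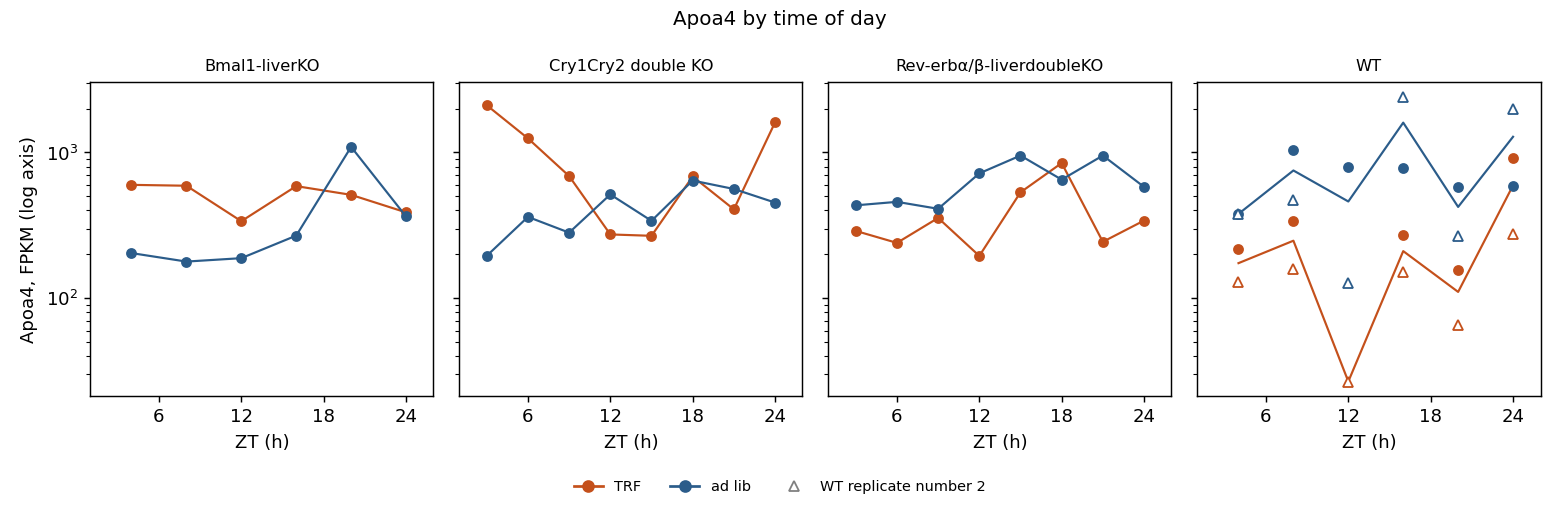
Apoa4 FPKM (log axis) against ZT in each genotype, TRF and ad lib, 1 point per library. In the Cry1Cry2 double KO, TRF runs at 2108 FPKM at ZT3, 268 at ZT15 and 1608 at ZT24, while ad lib stays at 195 to 641.

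The wider lipoprotein pathway was described by 5 lists of genes, of which the first held the other apolipoproteins. In WT TRF against ad lib, 5 of 15 rose and 4 fell (median 0.17, against −0.03 over all genes), shares close to the 28.6% of all genes that were higher and the 35.5% that were lower; after correction 3 rose and 2 fell, where 20.7% of all genes were higher and 17.8% lower. Apoc4, the neighbour of Apoc2 on chromosome 7, fell by 2.07 ± 0.30 on the log2 scale and stood at −2.10 after the correction. Apoc4 differed by 0.30 ± 0.42 in Bmal1-liverKO, −0.10 ± 0.36 in the Cry1Cry2 double KO and −0.51 ± 0.36 in Rev-erbα/β-liverdoubleKO, none of which passed. The interferon-responsive Apol9b (−0.76) and Apol9a (−0.72) also fell, and Apoo, of the mitochondrial inner membrane, rose (0.52).

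The lists of receptors and regulators held more falls than rises in WT TRF as deposited, to be read against the shares of all genes just given. Of 14 receptor and uptake genes 10 fell and 0 rose (median −0.66; 4 fell after correction), among them the remnant receptor Lrp1 (−1.63; −0.77 after correction), the lipolysis-stimulated receptor Lsr (−1.26; −0.27) and Lrp5 (−1.17; −0.65). Of 31 transcriptional regulators of apolipoprotein genes 19 fell and 5 rose (median −0.71; 6 and 6 after correction), among them Esrra (−1.98; −1.90 after correction), Srebf1, a driver of lipogenesis (−1.95; −1.05), Cebpb (−1.92; 0.16) and the oxysterol receptor Nr1h2 (−1.87; −0.70). Of 27 assembly and secretion genes 8 rose and 7 fell (median 0.07; 7 rose and 3 fell after correction), as deposited again close to the shares of all genes. The 4 with the greatest differences as deposited all fell, namely the lipid droplet gene Cidec (−1.22), the triglyceride synthase Dgat2 (−0.85), Cideb, which loads lipid onto VLDL (−0.84), and Pla2g12b (−0.80), while the 8 that rose did so by 0.23 (Sar1a) to 0.73 (Aadac), both named after their values were seen. Of 15 lipases and HDL remodelling genes 2 rose and 7 fell (median −0.32; 0 and 2 after correction), with the phospholipid transfer protein Pltp at −1.40 (−0.56 after correction) and Lmf2, a lipase maturation factor relative, at −1.11.

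In the mutants, no gene of these 5 lists passed for feeding in Bmal1-liverKO or the Cry1Cry2 double KO. In Rev-erbα/β-liverdoubleKO the uptake gene Cd36 fell (−1.08 ± 0.30) and Lpl, which encodes lipoprotein lipase, rose (0.83 ± 0.17). Against WT, Lpl was higher in Bmal1-liverKO by 3.01 ± 0.18 under TRF and 3.33 ± 0.17 under ad lib feeding, and in Rev-erbα/β-liverdoubleKO by 2.41 ± 0.16 and 2.18 ± 0.16 under TRF and ad lib. The lipolytic carboxylesterase gene Ces1d, which has near-identical relatives and is uncertain, was lower in Bmal1-liverKO by −3.50 ± 0.30 and −2.36 ± 0.30 and in Rev-erbα/β-liverdoubleKO by −2.53 ± 0.28 and −1.57 ± 0.27 under TRF and ad lib, and higher in the Cry1Cry2 double KO by 1.09 ± 0.28 and 1.64 ± 0.27. Of the 14 receptor and uptake genes, 9, 12 and 10 were higher than WT under TRF in Bmal1-liverKO, the Cry1Cry2 double KO and Rev-erbα/β-liverdoubleKO, where 27.8%, 33.7% and 28.4% of all genes were. After correction 4, 8 and 6 were higher, where 14.8%, 24.3% and 21.7% of all genes were, and the 3 comparisons share the WT TRF libraries.

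Within groups, the short and the long members moved in opposite ways over the libraries. After the mean of its group was removed from each log2 value, Apoc1 correlated with Apoc3 at r = 0.89, Apoc2 with Apoc3 at 0.85, Apoa2 with Apoe at 0.83, Apoa4 with Apoc2 at 0.82, and Apob with Apoc3 at −0.84, over 67 libraries that differ in depth and in their GC and length slopes. The neighbours of Apoc3 by this measure were Ndufs6 and Cox4i1 (r = 0.97 each) and Prdx5 (0.97). Those of Apoe were Atp5d (0.96), Akr7a5 and Acads (0.95 each), and those of Apob included Tpr and F5 (0.92 each). Apoa4 was less tied to any gene, with S100a11, Aldoa and Ifi27l2b at 0.76 each, as was Mttp, whose closest gene was Dtx3l (0.72).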

How the data were processed

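Per the labels' protocols, polyA RNA of liver was prepared with RNeasy Mini and TruSeq Stranded mRNA kits. The authors deposited FPKM values in 1 table; STAR, featureCounts, DESeq2 and GRCm38 are named in the submitters' processing notes without versions or roles. Low values fell on whole multiples of 1 read for 84.4 to 88.4% of values up to 20 reads (tolerance 0.1), from which depth was recovered. The table has 27 symbols turned into dates and 4 rows with a repeated symbol, none of them members. The FPKM were analysed as log2(FPKM + 1), with genes of a mean of at least 1 FPKM, in 1 limma fit (version 3.58.1, R 4.3.3; trend and robust) of all 67 libraries, with a level and a 24-h cosine and sine per group. Group levels, their differences and the cosine and sine were tested with Benjamini-Hochberg adjustment over all genes, and a gene passed at an adjusted p under 0.05. The scripts were tested on simulated data. Python 3.11.15 with pandas 2.3.3 and matplotlib 3.10.9 did the rest.

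The alternatives were a pseudocount of 0.1, no filter, scaling by median of ratios or to an equal sum of FPKM, correction of each library for a smooth trend on GC content and exon length, only the groups compared, no time terms, library weights, a replicate block, no libraries with pancreas reads, 1 WT replicate number at a time, and each library left out. Leaving out the 4 libraries with a length slope under −0.2, and the correction within 1 WT replicate number, were chosen after seeing the data. The members and gene lists were chosen with earlier results of these data known. Members were always named, with up to 4 passing genes of the greatest difference per pathway list and the 3 genes most like each member; genes that these rules name but the text omits are not reported here. Sequences are from RefSeq; promoters were matched for 8 of 10 members, and proteins were not used here.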

Additional observations from a re-analysis of the deposited data

Results flagged for a closer look

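In 60 groups of a member, genotype and feeding with 6 to 8 libraries, 4 had 1 library far from the others by Dixon's test; chance gives about 1 in 20 groups. Apoa4 in Bmal1-liverKO ad lib was at 1092 FPKM at ZT20, where the next library was at 364. Apob in Rev-erbα/β-liverdoubleKO ad lib was at 186 FPKM at ZT9, a library with pancreas reads, where the next was at 277. Apoc3 in Rev-erbα/β-liverdoubleKO TRF was at 1883 FPKM at ZT15, where the next was at 1430.4. Mttp in Bmal1-liverKO ad lib was at 64.7 FPKM at ZT24, where the next was at 50.7.

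The feeding effect (TRF minus ad lib, log2) of a mutant differed from that of WT by the test of the difference itself in 19 cases. In Bmal1-liverKO the difference was 2.58 for Apoa4, 2.31 for Apoe, 1.48 for Apoc2, 1.28 for Apoc1, 1.27 for Apoa1, 1.18 for Apoa5, 1.02 for Apoc3, −0.53 for Mttp and −1.46 for Apob. In the Cry1Cry2 double KO it was 2.71 for Apoa4, 2.15 for Apoe, 1.28 for Apoc2, 1.24 for Apoa5, 0.87 for Apoa1 and 0.84 for Apoc3. In Rev-erbα/β-liverdoubleKO it was 1.96 for Apoe, 1.26 for Apoa1, 0.87 for Apoc1 and 0.75 for Apoa5. All 3 sets rest on the same WT libraries, whose GC slopes differ between feedings. In the same tests 41.9%, 46.6% and 36.1% of all genes passed in Bmal1-liverKO, the Cry1Cry2 double KO and Rev-erbα/β-liverdoubleKO. After correction 3, 3 and 2 members passed, where 21.5%, 21.1% and 19.4% of genes did.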

How the results depend on the processing

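WT TRF libraries differ from WT ad lib in GC slope, each mutant has 1 library per time, and FPKM give no counting error, so technical spread could not be separated from the spread between animals; every member had at least 883 recovered reads in each library, and the effect of depth on the calls was not tested. Over all alternatives but single libraries left out, 223 counts stayed within 1.5 times the main one, while 47 moved beyond it, 19 became more than 0 and 2 became 0; 1443 values of members kept direction and side of the threshold, while 157 lost their call, 87 gained one, 19 turned with a call and 74 turned with none. The cause was not tested where a value changed. The labels do not say that a replicate number of WT marks a shared animal or batch. The differences between the numbers correlated across feedings at 0.398, 0.626, 0.609 and 0.544 at ZT4, 8, 16 and 20 but at −0.287 at ZT24, so the numbers were not taken as pairs, although deviations were shared at 4 of 5 times; with a replicate block Apoe for feeding in WT was −2.21 and the count of members stayed at 9.

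Members passing for feeding in WT were 9, against 4 with the correction for GC content and length, 4 without WT replicate 2, 4 with the correction without replicate 1 and 1 with the correction without replicate 2. For feeding in the mutants, 0 became 1 with weights or without pancreas libraries in Bmal1-liverKO, 1 with weights in the Cry1Cry2 double KO, and 2 with the same sum, 1 with the correction, 3 with only the groups compared and 8 with weights in Rev-erbα/β-liverdoubleKO. Weights ran from 0.018 (WT ad lib ZT16 replicate 2) to 56.4 (WT TRF ZT8 replicate 2), so the last library weighed far more than any other. Outside the main fit and the correction over all libraries, shares of all genes are not given here or for the rhythm counts below. Whether counts in those settings exceed such shares is therefore not shown. Against WT under ad lib feeding, Bmal1-liverKO had 3, but 1 with only its groups, 5 with weights and 5 without WT replicate 1. The Cry1Cry2 double KO had 8, but 4 with the correction and 3 with it without replicate 2. Rev-erbα/β-liverdoubleKO had 8, but 3 with the same sum, the correction or no pancreas libraries, 5 without replicate 2, and 5 and 2 with the correction without replicate 1 and 2. Under TRF, Bmal1-liverKO had 7, but 1 with the correction, 4 with only its groups, 2 without replicate 2, and 3 and 2 with the correction without replicate 1 and 2. The Cry1Cry2 double KO had 3, but 5 without replicate 2 and 6 with the correction without replicate 1. Rev-erbα/β-liverdoubleKO had 3, but 1 with only its groups and 5 with weights, without pancreas libraries, without replicate 2 or with the correction without replicate 2. For differences from the WT feeding effect, Bmal1-liverKO had 9, but 3 with the correction, 4 without replicate 2 and 1 with both; the Cry1Cry2 double KO had 6, but 3 with the correction, without replicate 2 or with the correction without replicate 1, and 2 with it without replicate 2; Rev-erbα/β-liverdoubleKO had 4, but 2 with the correction, only its groups or without replicate 2, and 8 without replicate 1.

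Rhythm counts in WT ad lib were 2, but 0 with no filter or only its groups, 4 with the correction or without pancreas libraries, 6 with weights, and 1 with the same sum, without the libraries of low length slope and with either replicate number, corrected or not. In WT TRF 0 became 2 with the same sum, 10 without pancreas libraries and 1 with weights, without the libraries of low length slope or without replicate 1. With weights, 2 rhythms passed in Cry1Cry2 double KO TRF (2 with the correction too) and Rev-erbα/β-liverdoubleKO TRF, 1 each in both ad lib groups of these mutants, and 1 and 2 rhythm differences passed in WT and the Cry1Cry2 double KO. Leaving out each library in turn gave 9 to 10 members for feeding in WT and 0 in the mutants; 1 to 6, 8 to 9 and 6 to 8 against WT under ad lib feeding in Bmal1-liverKO, the Cry1Cry2 double KO and Rev-erbα/β-liverdoubleKO; 5 to 8, 3 to 5 and 2 to 4 under TRF; 8 to 10, 5 to 7 and 2 to 4 for differences from the WT feeding effect; 0 to 6 and 0 to 4 for rhythms in WT TRF and WT ad lib; 0 to 3 for the rhythm difference in WT; and 0 for all other rhythms.

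Signs of members turned in several settings. With libraries scaled to the same FPKM sum, Apob turned to −0.035 and Apoc3 to −0.029 for feeding in the Cry1Cry2 double KO. In Bmal1-liverKO, Apoa2 turned to −0.145 and Apoe to −0.11 with that scaling. The turns that follow came under the correction or within 1 WT replicate number. For feeding in WT, Apoc2 was 0.12 and Apoc3 0.17 with the correction without replicate 2. For Bmal1-liverKO against WT under TRF, Apoa1 was −0.002 with the correction and −0.079 with it without replicate 1, and Apoa2 was −0.37 and Apoc2 −0.054 with it without replicate 2. Under ad lib feeding, Apoa2 was 0.37 (Cry1Cry2 double KO) and 0.15 (Rev-erbα/β-liverdoubleKO) with the correction without replicate 1, and Apoc3 was 0.01 (Cry1Cry2 double KO) and Mttp −0.031 (Rev-erbα/β-liverdoubleKO) with it without replicate 2. For the Cry1Cry2 double KO under TRF, Apoa1 was −0.29 with the correction without replicate 1, Apoc2 was 0.45 without replicate 1, −0.57 without replicate 2 and −0.48 with the correction too, and Apoe was −0.006 in that last setting. For differences from the WT feeding effect, Apoa1 was −0.007 with the correction in the Cry1Cry2 double KO; with it without replicate 2, Apoc3 was −0.10, −0.15 and −0.50 in Bmal1-liverKO, the Cry1Cry2 double KO and Rev-erbα/β-liverdoubleKO, and Apoa5 was −0.004 in the last.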
